A study of Mus musculus with 32 samples.

Results

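Tanycytes line the floor of the third ventricle and send long processes into the median eminence (ME), where their feet meet fenestrated capillaries and the terminals of neuroendocrine neurons. Those of the ME itself are known as beta tanycytes, form the barrier between the ME and the cerebrospinal fluid through tight junctions, and have been linked to hormone release, nutrient sensing and the handling of thyroid hormone. The retinal homeobox factor Rax marks tanycytes in the adult hypothalamus.

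The cells described here are 200 of the 5982 cells sequenced from the mouse ME, or 3.34% (95% interval 2.90% to 3.83%). They were chosen by measured values. A cell was taken when it held at least 1 unique molecular identifier (UMI, 1 captured transcript) of Rax and at least 3 UMIs in sum of Col25a1, Scn7a and Adm, the programme genes, under limits on genes of other cell types (fewer than 5 UMIs of Agt, fewer than 5 of Dcn, and fewer than 20 of Snap25, Syt1, Stmn2 and Stmn3 in sum). They are called Col25a1/Scn7a/Adm cells below. They were set against all 5782 other cells and against 1129 other Rax cells, which met the same limits and had 0 or 1 programme UMI. A further 54 Rax cells with 2 programme UMIs were put in neither group. Of the 1383 Rax cells within the limits, the Col25a1/Scn7a/Adm cells made up 14.5% (95% interval 12.6% to 16.4%).

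The ME came from C57BL/6j mice (written C57B/L6 in the sample labels) aged 40 to 47 days, 5 of which had been fasted overnight and 5 of which had been refed normal chow for 1 h after such a fast. All were males, no mutation or transgene is named for them, and there were no mice fed throughout. The tissue was dissociated with papain and sorted for live cells. The material of the 5 mice of each condition was pooled and split over 2 droplet libraries. Each condition was therefore 1 pool without replicates. The barcodes carry an end number, 1 to 4, for which no condition is given. Fasted and refed cells could therefore not be separated, all cells count as a single sample, and no test was possible. Values are given for each barcode number, and by the convention of the counting software these numbers mark libraries, whose condition is not known.

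Col25a1/Scn7a/Adm cells were found under all 4 barcode numbers. There were 63 of 1642 cells in number 1 (3.84%), 54 of 1493 in number 2 (3.62%), 47 of 1359 in number 3 (3.46%) and 36 of 1488 in number 4 (2.42%). Among Rax cells within the limits, their share was 15.4%, 16.4%, 15.7% and 10.4%, so that number 4 lay below the other numbers. They held between 1897 and 9850 UMIs with a median of 5233, against medians of 4043 in other Rax cells and 3765 in all other cells. The median number of genes per cell was 2398, against 1970 and 1824. Mitochondrial transcripts took a median of 5.91% of their UMIs, against 4.50% in other Rax cells. Of the 50 cells that Scrublet called doublets, 1 was among them, and none of them had a barcode that was shared by libraries, of which there were 21.

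The rule was mainly a rule on the programme genes. Of 1577 cells with Rax, 208 had at least 3 programme UMIs, the limits on Agt and Dcn removed 0 of these, and the neuron limit left 200. Outside the rule, 35 cells within the limits had at least 3 programme UMIs and no Rax UMI. The sum of the 3 genes was 0 in 1027 Rax cells, 1 in 102 and 2 in 54, and it ranged from 3 to 26 in the Col25a1/Scn7a/Adm cells with a median of 6. There was no gap at the threshold, with 54 cells just outside it, 32 cells just inside it at 3 UMIs and 30 at 4 UMIs.

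**Figure D1:**
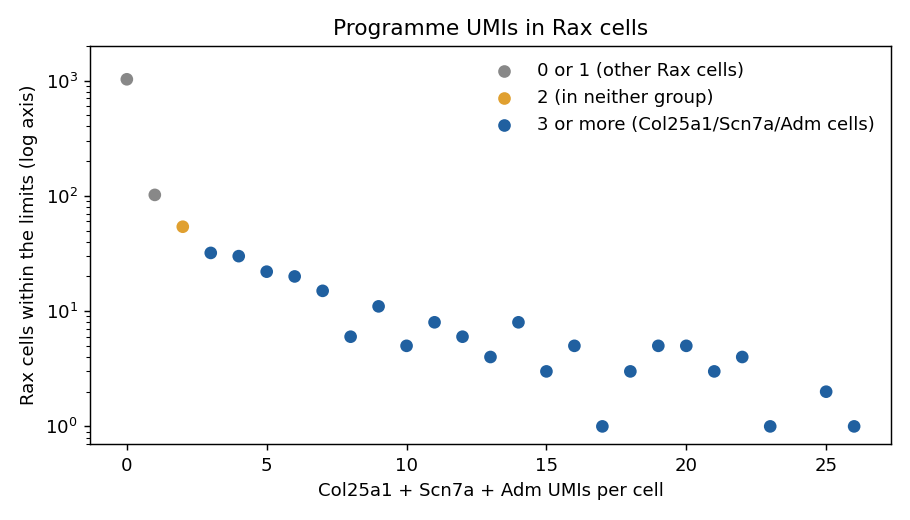
Number of Rax cells within the limits (log axis) by their UMIs of Col25a1, Scn7a and Adm in sum, 1 point per number of UMIs, with grey for other Rax cells, orange for the cells in neither group and blue for Col25a1/Scn7a/Adm cells. The counts run from 1027 cells at 0 to 54 cells at 2 and 32 cells at 3 without a gap, and reach 26 UMIs.

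Col25a1 encodes a membrane-bound collagen, Scn7a a sodium channel that has been linked to the sensing of sodium in brain regions with open capillaries, and Adm the vasodilator peptide adrenomedullin. Since these genes chose the cells, their levels are a description only. Levels are UMIs of a gene per 1e+06 UMIs of a group of cells (CPM), with exact Poisson intervals at 95% that cover counting error only. Col25a1 stood at 776, 904, 807 and 716 CPM in numbers 1 to 4 of the Col25a1/Scn7a/Adm cells, and was present in 193 of them. Scn7a, present in 137 cells, had 598, 690, 700 and 661 CPM. Adm was found in 80 cells, with 141, 218, 138 and 155 CPM. Most cells therefore carried Col25a1, while Adm was not detected in 120 of the 200 cells at this depth.

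All 3 genes were seen together in 59 cells, Col25a1 with Scn7a but without Adm in 72, Col25a1 alone in 45, and Col25a1 with Adm in 17. Only 7 cells lacked Col25a1. Outside the 200 cells, Col25a1 was also seen in 29.5% of the 437 cells with 20 or more neuron gene UMIs (45.9 CPM, median depth 14479 UMIs), 78 of which had Rax (8 of them with at least 3 programme UMIs), against 1.45% of cells with 5 or more UMIs of C1qa, C1qb and C1qc, which mark microglia and should lack it (median depth 3165 UMIs). With every cell thinned to 2000 UMIs these shares of Col25a1 were 9.15% and 0.806%. Scn7a was seen in 14.2% of the 431 cells with ciliated ependymocyte genes (30.9 CPM), against 1.27% of the C1q cells, or in 7.44% and 0.403% after thinning. Of those 431 cells, which hold no Col25a1/Scn7a/Adm cell, 104 had Rax. Adm had 0 UMIs in the 551 C1q cells, which allows a share of up to 0.667% of cells with an Adm UMI by the exact 95% interval and sets no limit on cells that express it below detection.

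Each of the 3 genes was also left out of the choice in turn. Among Rax cells within the limits, Scn7a stood at 528 CPM (95% interval 488 to 571) in the 227 cells with at least 2 UMIs of Col25a1 and Adm in sum, and at 6.82 CPM (4.60 to 9.73) in the 1046 cells with none, a 77.5-fold ratio. Col25a1 stood at 763 CPM (698 to 831) in 126 cells chosen by Scn7a and Adm, against 65.9 CPM (59.1 to 73.3) in 1191 cells without them, a ratio of 11.6. Adm had 130 CPM (111 to 151) in 246 cells chosen by the other 2 genes and 3.20 CPM (1.75 to 5.36) in 1036 cells without them, a ratio of 40.7. Under each barcode number the left-out gene was higher in the chosen cells, with Scn7a between 465 and 620 CPM there against 3.16 to 14.5 CPM. The 3 genes had been put together with earlier results of these data known, so these values describe the programme and are no test of it.

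The 3 genes lie on different chromosomes, and their upstream sequences are shown because they are the genes that define the cells. Col25a1 lies on chromosome 3 (130131501 to 130599877, plus strand), Scn7a on chromosome 2 (66673425 to 66784914, minus strand) and Adm on chromosome 7 (110627661 to 110629820, plus strand) in the GENCODE vM21 annotation of GRCm38. Printed are the 250 bases before the RefSeq start of each gene (GRCm38.p6), 5′ to 3′ on the strand of the gene, at chr3:130180595-130180844, chr2:66784911-66785160 and chr7:110627407-110627656. The RefSeq start of Col25a1 lies 49344 bases inside the GENCODE gene, whereas those of Scn7a and Adm lie within 4 bases of it. Capitals mark TAAT on either strand (TAAT or ATTA), the core letters bound by homeodomain factors such as Rax.
Col25a1: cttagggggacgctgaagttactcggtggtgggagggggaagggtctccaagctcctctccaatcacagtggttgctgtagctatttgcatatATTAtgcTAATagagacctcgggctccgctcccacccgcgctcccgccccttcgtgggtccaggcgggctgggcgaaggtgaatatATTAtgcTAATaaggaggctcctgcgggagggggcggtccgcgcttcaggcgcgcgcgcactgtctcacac
Scn7a: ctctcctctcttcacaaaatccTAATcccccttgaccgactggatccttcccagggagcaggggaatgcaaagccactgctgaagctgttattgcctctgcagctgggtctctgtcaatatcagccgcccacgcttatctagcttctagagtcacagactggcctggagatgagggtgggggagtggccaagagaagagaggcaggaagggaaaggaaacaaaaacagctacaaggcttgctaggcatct
Adm: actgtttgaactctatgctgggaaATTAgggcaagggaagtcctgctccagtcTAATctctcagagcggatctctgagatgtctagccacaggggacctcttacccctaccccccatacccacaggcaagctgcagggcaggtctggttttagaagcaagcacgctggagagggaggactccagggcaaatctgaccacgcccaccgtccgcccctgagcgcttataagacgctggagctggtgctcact
The core was found 4 times before Col25a1, 1 time before Scn7a and 2 times before Adm. Of all 32851 RefSeq windows of this length, 54.9% hold it, 30.8% at least 2 times and 9.62% at least 4 times. The paired form TAATTA, which 4.84% of windows hold, was in none of the 3, nor was TAATNNNATTA, held by 0.463%. Before Col25a1 the same run of 16 bases, atatattatgctaata, occurs at 161 and again at 75 bases from the start, and with it the letters ATGCTAAT occur 2 times. At least 1 copy of ATGCTAAT on either strand is held by 0.828% of windows, and 4 windows hold 2. A run of 16 bases that recurs was found in 1631 windows. The letters ATGCTAAT were looked for after the sequence had been read, and a match is a description of the sequence, not a binding site.

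Rax itself was required by the rule but differed little in level. It stood at 842, 808, 819 and 817 CPM in the Col25a1/Scn7a/Adm cells and at 711, 780, 665 and 743 CPM in other Rax cells, a log2 ratio of 0.18. The median was 4 Rax UMIs per cell (1 to 14) against 2 in other Rax cells, of which 429 had a single Rax UMI. Other markers of tanycytes in general were high as well. Of a list of 20 such genes, 17 were at least 1 log2 unit higher than in all other cells, beside 2.26% of all genes in that comparison, with Mia at 1959 CPM against 363, Prdx6 at 5711 against 1350, Vim at 398 against 163, and Lhx2, a homeobox factor of tanycytes and retina, at 156 against 32.7. Their summed level was 26770 CPM, against 26701 in other Rax cells and 8708 in all other cells. Nnat alone made up 11219 of the 26770 CPM. Against other Rax cells the median log2 ratio of this list was 0.23 with 4 genes at least 1 log2 unit higher (Dio2, Ppp1r1b, Six3 and Six6, beside 1.47% of all genes) and S100a6 lower (beside 3.82%). Apart from Rax, none of these markers chose the cells.

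Crym, a cytosolic protein that binds thyroid hormone and a marker given for this cell group, went the other way. It was detected in 96 of the 200 cells and stood at 416, 318, 210 and 446 CPM in numbers 1 to 4, against 672, 623, 519 and 572 CPM in other Rax cells. All 4 values lay below all 4 values of the other Rax cells, with 346 CPM (95% interval 311 to 384) against 602 (581 to 625) in sum. Crym was nonetheless higher than the 140 CPM of all other cells. Since this marker separated them from other Rax cells in the wrong direction, the cells are named here by the genes of the rule.

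Without the rule, the cells fell together in a clustering of all 5982 cells. Of 24 Leiden clusters, a single cluster of 538 cells held 195 of the 200 (97.5%), along with 248 other Rax cells, and 492 of its cells had Rax. The other Rax cells were spread over 9 clusters with at least 10 of them, with 544, 248 and 189 in the largest. The share of Rax cells that lay in the cluster of the Col25a1/Scn7a/Adm cells was 17.1% at 0 programme UMIs, 70.6% at 1, 90.7% at 2 and 93.8% at 3. The clustering used the programme genes among others, so it is no independent evidence.

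The comparison with other Rax cells asked which genes set these cells apart from tanycytes without the programme. Of 9637 genes with at least 50 UMIs over both groups, 142 were at least 1 log2 unit higher (1.47%) and 368 at least 1 log2 unit lower (3.82%), on the scale of log2 of CPM plus 10. Each count of list members in this comparison is to be read beside these shares, and nothing is read from a count of 0 or 1. The 142 include the 3 programme genes, which the rule fixed. The median over all genes was 0.01. Of the 142 genes, 141 were higher under all 4 barcode numbers and 133 had 4 values above all 4 of the other Rax cells, and 1928 of all 9637 genes had no overlap in either direction. Of the 368, 355 were lower under all 4 numbers. The genes were called on UMIs summed over the same 4 numbers, which favours agreement in direction, so these counts are no replication. The other Rax cells are mixed, and some of them carry transcripts of other cell types. Among them 97 cells had at least 2 UMIs of ciliated cell genes, 30 at least 10 of myelin genes, 22 at least 5 of C1q genes and 11 at least 5 of Cga, a pituitary hormone subunit, whereas 8 of the Col25a1/Scn7a/Adm cells passed the limit for ciliated cells and none the other limits. With such cells left out of both groups, a choice made after seeing the data, 130 of the 142 higher genes and 241 of the 368 lower genes remained past 1 log2 unit.

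**Figure D2:**
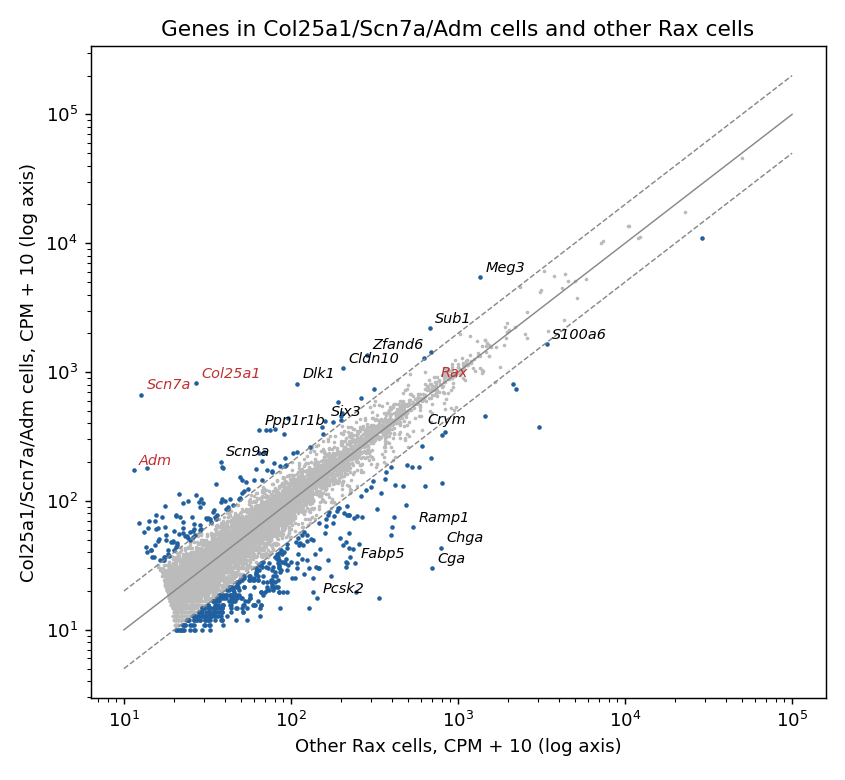
Level of each of 9637 genes in Col25a1/Scn7a/Adm cells (vertical) and other Rax cells (horizontal), in CPM plus 10 on log axes, with the diagonal as a solid line and 1 log2 unit either side dashed. Blue points are the 142 genes above and the 368 genes below the dashed lines, and red names are genes the rule used.

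Dlk1 led the 25 genes with the largest ratios to other Rax cells. Dlk1, a membrane protein related to Notch ligands that is expressed from the paternal allele, stood at 717, 611, 890 and 1097 CPM in numbers 1 to 4, against 179, 76.9, 34.3 and 76.4 CPM in other Rax cells. Every value lay above those of the other Rax cells, with a ratio of 8.14. The spread of Dlk1 between cells was wide. A total of 93 of the 200 cells had no Dlk1 UMI and 25 had at least 10, with up to 40. A single other Rax cell of barcode number 1 held 183 Dlk1 UMIs, and without it the other Rax cells stood at 60.6 CPM in place of 98.6.

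Meg3, a maternally expressed long noncoding RNA, lies 77665 bases from Dlk1 on chromosome 12 and was high in the same cells. It stood at 5767, 4960, 5636 and 5196 CPM against 1398, 1561, 1310 and 1127 in other Rax cells, 4.02 times as high, and was found in 99.5% of the cells, against 80.9% of other Rax cells and 23.2% of the C1q cells. Mest, another gene expressed from the paternal allele, on chromosome 6, had 297, 318, 380 and 421 CPM against 43.1, 44.1, 83.0 and 77.2. Meg3 is also abundant in neurons, with 4729 CPM in the cells with 20 or more neuron gene UMIs. The 12 neuron genes summed to 242 CPM in the Col25a1/Scn7a/Adm cells and 450 in other Rax cells, but Snap25 and Stmn2 of this list were limited by the rule in both groups, and the part of neuronal RNA in the Meg3 level was not tested.

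Scn9a, a voltage-gated sodium channel gene that is known from sensory neurons, is the neighbour of Scn7a on chromosome 2 at a distance of 38463 bases. Its levels were 210, 175, 162 and 225 CPM, against 26.7, 30.9, 22.9 and 31.7 CPM in other Rax cells, a ratio of 6.84. It was detected in 106 of the 200 cells. Tmem176a and Tmem176b, which overlap head to head by 577 bases on chromosome 6 and encode membrane proteins of intracellular vesicles, were 4.93 and 3.19 times as high. Tmem176a stood at 349 CPM against 70.7 and Tmem176b at 574 against 180. Both are abundant in the C1q cells (482 and 762 CPM). Microglia and macrophage genes stood at 137 CPM in sum over 9 genes in the Col25a1/Scn7a/Adm cells and at 776 CPM in other Rax cells. With cells that carry transcripts of other types left out, these sums were 137 and 150 CPM. The part of microglial RNA in the Tmem176a and Tmem176b levels was not tested. Other neighbours were higher as well, with Fah beside Zfand6 at 43.7 CPM against 13.1 and 4930447C04Rik, which overlaps Six6, at 63.7 against 22.0. Zfr beside Sub1 (164 CPM against 152) and Dzip1 beside Cldn10 (19.0 against 27.5) lay within 1 log2 unit.

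The 25 genes also included 3 transcription factors, Six6, Six3 and Tbx3. Six6 stood at 285, 329, 340 and 341 CPM against 76.5, 89.0, 65.8 and 91.1 CPM in other Rax cells, and Six3 at 372, 418, 439 and 391 CPM against 152, 147, 143 and 156. Both are homeobox factors of the developing ventral forebrain. Tbx3, a T-box factor of the arcuate nucleus and of tanycytes, had 131 CPM (95% interval 110 to 155) against 44.1 (38.4 to 50.4). Its antisense gene Tbx3os1 stood at 56.3, 46.5, 59.3 and 20 CPM against 0.683 to 5.72. It overlaps Tbx3 on the opposite strand, and since the use of strand in counting is not stated in the sources used here, reads of the pair may not be fully told apart. Nkx2-1, which is needed for the formation of the ventral hypothalamus, was at 264 CPM against 136, a log2 ratio of 0.91 that stayed under 1.

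Cldn10, a claudin that forms ion-selective tight junctions, had 1170, 1126, 1016 and 872 CPM against 179, 237, 220 and 155 CPM in other Rax cells, a ratio of 5.46, and was present in 86.0% of the cells. It is also high in astrocytes, with 1493 CPM in the cells with 5 or more Agt UMIs. Of 13 measured genes of the barrier and junction list, Cldn10 was the only gene higher and Cldn11, a claudin of myelin, the only gene lower, beside 1.47% and 3.82% of all genes. Ocln stood at 73.2 CPM against 72.4 and Tjp1 at 41.8 against 33.7, within 1 log2 unit. Of receptors among the 25 genes, Fgfr1 (167 CPM against 51.4), the ciliary neurotrophic factor receptor Cntfr (193 against 56.6), the lysophosphatidic acid receptor Lpar4 (227 against 54.5) and the kainate receptor subunit Grik3 (174 against 28.7) were higher. Fgfr1 was the only higher gene of 11 measured hormone and growth factor receptors, beside 1.47% of all genes. Lepr, the leptin receptor, had 0 UMIs in the Col25a1/Scn7a/Adm cells and 15 UMIs (3.12 CPM) in other Rax cells, too few to compare.

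Others of the 25 act in signalling, metabolism and the cell cycle. Ppp1r1b, which encodes the phosphatase inhibitor DARPP-32 and is a known tanycyte gene, had 344, 379, 360 and 281 CPM against 57.4, 73.1, 49.6 and 39.8. Deptor, an inhibitor of the mTOR kinase, stood at 229 CPM (201 to 260) against 59.3 (52.6 to 66.6). G0s2, an inhibitor of triglyceride lipase, stood at 345 CPM against 64.7 and was present in 103 of the 200 cells. Rgcc, a regulator of the cell cycle, had 429 CPM against 85.9.

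The nuclear factor Sub1, a transcriptional coactivator, and Zfand6, a zinc finger protein that binds ubiquitin, were the genes with the most UMIs among the 25 after Meg3. Sub1 stood at 1984, 2623, 1985 and 2164 CPM against 663, 728, 663 and 615, a ratio of 3.29, and Zfand6 at 1449, 1565, 1325 and 952 CPM against 304, 311, 249 and 237, a ratio of 4.91. Zfand6 was found in 95.5% of the cells, against 60.7% of other Rax cells, and Sub1 in 97.0% against 88.4%. Their medians were 9 UMIs of Sub1 and 6 of Zfand6, against 2 and 1 in other Rax cells. Among the others of the 25 were Lrrc8d, Hpcal1, Actn1 and 1700003F12Rik, between 1.41 and 2.20 log2 units higher. The 25 genes had been required to be higher under all 4 barcode numbers. Their values by number did not overlap with those of the other Rax cells, which also held for 20% of all 9637 genes in either direction, and all 25 remained past 1 log2 unit when cells with transcripts of other types were left out.

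**Figure D3:**
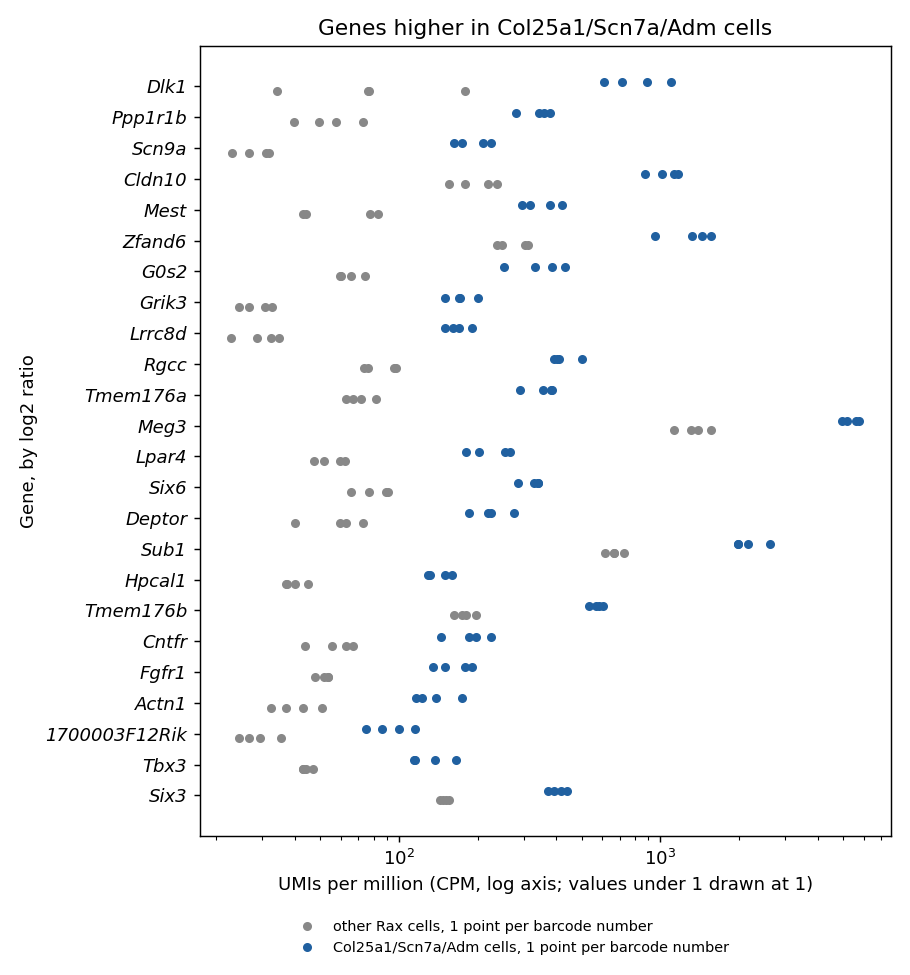
Levels in CPM (log axis) of 24 of the 25 genes with the largest ratio of Col25a1/Scn7a/Adm cells to other Rax cells, leaving out genes of the rule, with 1 point per barcode number and group. For each gene the 4 blue points lie to the right of the 4 grey points, as for Dlk1 with 611 to 1097 CPM against 34.3 to 179.

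The 25 genes with the smallest ratios fell into separate kinds. The largest difference was that of Cga, at 15.6, 7.15, 31.6 and 30.1 CPM against 1175, 594, 875 and 32.5 CPM in other Rax cells. It and 9 others (among them Chga, Chgb and Apoc3, the myelin genes Mal and Cldn11, the iron carrier Trf, and the microglial genes Ctss and C1qa) were within 1 log2 unit once cells with transcripts of other types were left out, with Cga at 20.8 CPM against 19.3. Those cells had been picked by their UMIs of Cga, C1qa and Mal among others, so that a smaller difference in these genes follows from leaving them out. The same holds for the lists of these cell types, which contain the genes that picked the cells. All 8 mature oligodendrocyte genes were lower, with a sum of 645 CPM against 4532 (634 against 939 after leaving such cells out). Pars tuberalis genes had 33.3 CPM in sum over 6 genes against 751 (32.7 against 30.5), with Cga as their most abundant gene. Microglia and macrophage genes had 137 CPM against 776 (137 against 150), with C1qb as their most abundant gene and Mrc1 at 0.

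The other 15 genes remained lower. Ramp1, which encodes a co-receptor that forms the CGRP receptor with Calcrl, stood at 59.5, 46.5, 59.3 and 40.1 CPM against 499, 473, 537 and 598 CPM in other Rax cells, a difference of -3.11 log2 units (-3.36 after leaving such cells out). It was detected in 19.0% of the Col25a1/Scn7a/Adm cells and in 69.2% of other Rax cells. The cells thus had little Ramp1, and Calcrl had 0 UMIs in them and 2.29 CPM in other Rax cells, too few to compare. Pcsk2, a protease that matures prohormones, was found in 5 of the 200 cells, with 7.61 CPM (95% interval 3.28 to 15) against 134 (123 to 144). Fabp5, a carrier of fatty acids, had 18.8, 7.15, 39.6 and 30.1 CPM against 182, 202, 302 and 259. Pou3f2, a POU homeobox factor of the hypothalamus, was found in 3 cells, with 2.85 CPM against 55.5. Rspo3, an enhancer of Wnt signals, was at 4.75 CPM against 76.5 and the calcium-binding Necab2 at 9.51 against 126.

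The cytoskeletal genes Stmn1 (128 CPM against 794) and Tubb2b (36.1 against 247) were lower too, as were Mef2c, which microglia also express (32.3 against 226), the lipid transfer gene Pltp (26.6 against 217) and the secreted matrix gene Sparcl1 (64.7 against 406). Scg2, Gatm, Resp18 and Enpp2 were lower by smaller amounts after the cells with transcripts of other types had been left out, between -1.14 and -1.74 log2 units. With both groups limited to cells with at least 4 Rax UMIs, a choice also made after seeing the data, these 4 genes stood between -0.29 and -0.75 log2 units, and among the higher genes Six3 (0.96) and 1700003F12Rik (0.78) lay under 1. Without the limits on Agt, Dcn and neuron genes, Stmn1 stood at -1.24 log2 units in place of -2.54, and Scg2 at -1.15 in place of -2.79.

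**Figure D4:**
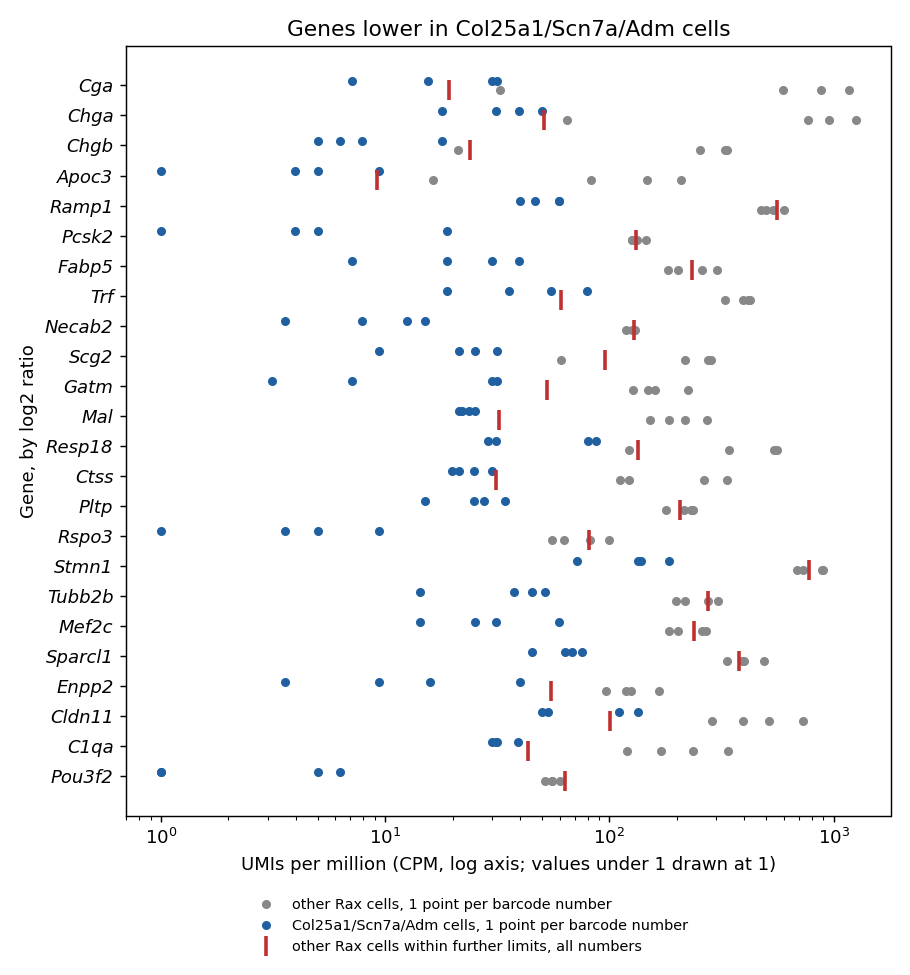
Levels in CPM (log axis, values under 1 drawn at 1) of 24 of the 25 genes with the smallest ratio of Col25a1/Scn7a/Adm cells to other Rax cells, with 1 point per barcode number and a red bar for the other Rax cells without transcripts of other cell types. The red bar lies near the blue points for Cga (19.3 CPM) and C1qa (43.3 CPM), by which cells were left out, and near the grey points for Ramp1 (561 CPM), Pcsk2 (131 CPM) and Fabp5 (234 CPM).

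Markers of other tanycyte subtypes differed in both directions and summed to 904 CPM against 1041. Of 10 such genes, 5 were lower than in other Rax cells, among them Vcan, Slc17a8, Cd59a and Nr2e1, and Penk was higher, beside 3.82% and 1.47% of all genes, with a list median of -1.09 log2 units. Vcan, a large proteoglycan, stood at 21.9, 28.6, 7.91 and 30.1 CPM against 91.6, 81.5, 83.9 and 83.7, and Slc17a8 was listed at 0 in the 200 cells against 16.8 CPM. Penk, which encodes proenkephalin, had 160, 164, 186 and 110 CPM against 64.9, 72.2, 62.9 and 67.5. Frzb, a secreted Wnt antagonist and a marker of a lateral type of tanycyte, was at 423 CPM against 248 and was the most abundant of the 10. Astrocyte genes summed to 1475 CPM over 12 genes against 1943, with 0 higher and 3 lower (Slc1a2, Gfap and Ntsr2, beside 3.82% of all genes), and their most abundant gene was Slc1a3. Ciliated ependymocyte genes summed to 1344 CPM against 2746, with 6 of 12 lower (beside 3.82% of all genes) and none higher, Cfap126 as their most abundant gene, and the defining Foxj1 at 34.2 CPM against 60.9.

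Thyroid hormone genes differed little as a list, with a median log2 ratio of -0.03. Of 12 measured genes, Dio2, the deiodinase that makes active thyroid hormone, was higher, with 37.6, 50, 23.7 and 35.1 CPM against 9.57, 12.2, 15.3 and 7.32, and none was lower by 1 log2 unit. Trhde, the enzyme that degrades thyrotropin-releasing hormone, had 30.4 CPM against 11.6. The receptor Thra stood at 298 CPM against 396. Crym, described above, was the measured gene of the list with the lowest log2 ratio, at -0.78.

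Secreted factors differed in both directions. Of 12 measured genes for adrenomedullin and vascular signals, Vegfa was higher besides Adm, which the rule fixed, and Ramp1 and Flt1 were lower, beside 1.47% and 3.82% of all genes. Vegfa, the main growth factor of fenestrated vessels, had 53.2, 92.9, 83.1 and 60.1 CPM against 29.4, 27.2, 21.0 and 17.9, and Flt1, its decoy receptor, 2.85 CPM against 31.6. The growth factor Ptn stood at 6512, 5975, 5937 and 5902 CPM against 3347, 3501, 3022 and 3084, a log2 ratio of 0.91. Among 20 measured secreted peptides and granins, Penk and Igfbp2 were higher besides Adm, and Chga, Chgb, Scg2, Scg3, Cpe and Pcsk2 were lower, again beside 1.47% and 3.82%. Igfbp2, which binds insulin-like growth factors, was at 51.3 CPM against 6.03, and Cpe, an enzyme of peptide maturation, at 713, 836, 728 and 626 CPM against 2078, 2057, 2312 and 2459. Cpe, Scg3 and Pcsk2 remained lower after cells with transcripts of other types had been left out (-1.73, -1.49 and -3.45 log2 units), whereas Chga and Chgb did not (-0.45 and -0.77).

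Of 25 measured genes of cholesterol and fatty acid metabolism, 5 were lower, beside 3.82% of all genes compared, and none was higher, beside 1.47%. Their median log2 ratio was -0.47, against 0.01 over all genes. The lower genes were Hmgcs1 (46.6 CPM against 150) and Idi1 (6.66 against 43.3) of the cholesterol pathway, the acyl-CoA synthetase Acsbg1 (16.2 against 71.5), and the carriers Fabp5 and Fabp7, the latter at 28.2, 21.4, 11.9 and 15 CPM against 138, 95.6, 110 and 122. Srebf1, a regulator of lipid genes, stood at 214 CPM against 114. Of 17 measured genes of matrix and collagen, Col27a1 was higher beside Col25a1 (51.3 CPM against 12.7), and Tnr, Vcan, Sparcl1, Timp4 and Serpine2 were lower, beside the same shares of all genes. Glucose and lactate genes differed in 1 of 11 (Pygm, lower), and 0 of 11 heat shock genes passed 1 log2 unit. Of 15 ion channels and connexins, Scn7a was higher and Kcnj16 lower, of 10 genes of signals to GnRH terminals Cntn1 was lower, and of 13 genes of caveolae and transcytosis Cav2 and Syt4 were lower (Scn7a was fixed by the rule). VLMC genes, of which the rule limited Dcn, summed to 79.9 CPM against 78.6, endothelial genes to 125 against 176 (Flt1 lower) and mural genes to 77.0 against 144 (Acta2 lower). OPC genes summed to 111 CPM against 490, with 6 of 6 measured lower, and haemoglobin genes to 19.0 against 20.4. Mitochondrial genes stood at 63634 CPM in sum against 46953, with a median log2 ratio of 0.45, and 86 ribosomal protein genes had a median of 0.04, with none past 1 log2 unit in either list.

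Adult tanycytes are known to hold neural progenitors. Of 18 measured progenitor genes, Hes5 and Id3 were lower and none was higher, beside 3.82% and 1.47% of all genes, so that the count of higher genes says nothing particular of the list. Sox9 (289 CPM against 271), Notch1 (36.1 against 36.8) and Fgf10 (60.8 against 40.8) lay within 1 log2 unit. Nes stood at 17.1 CPM against 38.7. Immediate early genes were higher in part. Junb and Dusp1 passed 1 log2 unit of 10 measured, with a list median of 0.86, and Junb stood at 122, 214, 127 and 271 CPM against 109, 83.4, 72.5 and 33.3. Fos had 197, 211, 166 and 501 CPM against 166, 108, 180 and 39.8, so that the groups overlapped. The summed level of this list was 2906 CPM in number 4 and between 1507 and 1662 in the other numbers, and the part of dissociation in it was not tested.

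Against all 5782 other cells, 315 of 13953 genes were at least 1 log2 unit higher (2.26%) and 1217 at least 1 log2 unit lower (8.72%). The other cells were of every type in the ME and included 1377 cells with Rax, among them the other Rax cells described above. Among the 25 genes above, Mest (14.1-fold), Grik3 (12.3-fold) and Ppp1r1b (10.7-fold) had the largest ratios to all other cells, and Hpcal1 (2.15-fold) the smallest. All 8 mature oligodendrocyte genes, all 7 OPC genes and all 9 microglia and macrophage genes were lower, and the median over all genes was -0.08. All 12 neuron genes were lower as well, but the rule limited neuron genes in the Col25a1/Scn7a/Adm cells alone here, Snap25 and Stmn2 of this list among them.

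The level of many of these genes followed the number of programme UMIs, also among the cells the threshold left out. Dlk1 stood at 78.3 CPM (95% interval 70.2 to 87.1) in Rax cells with 0 programme UMIs, 281 (236 to 333) with 1, 566 (481 to 662) with 2, 716 (624 to 817) with 3 to 4, 670 (588 to 759) with 5 to 9 and 1000 (902 to 1106) with 10 or more. Of the 339 Dlk1 UMIs at 0 programme UMIs, 183 came from the single cell named above, without which the level there was 36.1 CPM (30.7 to 42.3). Meg3 went from 1126 to 3327, 4138, 4941, 5016 and 6175 CPM over the same steps. With a single programme UMI, Meg3 was higher than with none under each barcode number (3322, 4339, 2801 and 2669 CPM against 1183, 1198, 1137 and 989). Dlk1 stood at 211, 317, 36.6 and 605 CPM there, so that number 3 hardly differed from its 34.1 CPM in cells with none. Sub1 and Tmem176a differed most above 4 programme UMIs. Sub1 had 630, 983, 1117 and 1219 CPM up to 3 to 4 programme UMIs and then 1965 and 3185, and Tmem176a 67.9, 95.8, 109 and 150 and then 284 and 571. The median depth of the cells ran from 4000 UMIs at 0 to 4907 at 3 to 4 and 5787 at 10 or more. After thinning every cell to 2000 UMIs, Sub1 had 632 CPM at 0 and 2977 at 10 or more, and Tmem176a 72.9 and 562. Thinning leaves the expected CPM of a group of cells as it was, so the part of depth in these levels was not tested.

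Other genes peaked in cells with few programme UMIs. Crym stood at 597, 654 and 918 CPM with 0, 1 and 2 programme UMIs, and at 526, 467 and 84.2 CPM (95% interval 57.6 to 119) with 3 to 4, 5 to 9 and 10 or more. Under barcode number 3 Crym had no such peak, with 534, 384 and 525 CPM at 0, 1 and 2 programme UMIs. In the last step Crym was between 54.2 and 109 CPM under each barcode number and present in 23.4% of the cells, against 77.8% at 2 programme UMIs. Frzb stood at 221 CPM at 0, 680 (591 to 779) at 3 to 4 and 245 (198 to 300) at 10 or more. S100a6, a calcium-binding protein, was lower at each step, from 3460 CPM at 0 to 879 at 10 or more. Rax itself had 708, 872, 860, 856, 907 and 713 CPM. Crym was thus lowest in the cells with the most programme UMIs. Just outside the threshold, at 2 programme UMIs, Crym, Dlk1, Meg3 and Frzb stood at 918, 566, 4138 and 631 CPM, and just inside it, at 3, they stood at 448, 889, 4407 and 628 CPM.

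**Figure D5:**
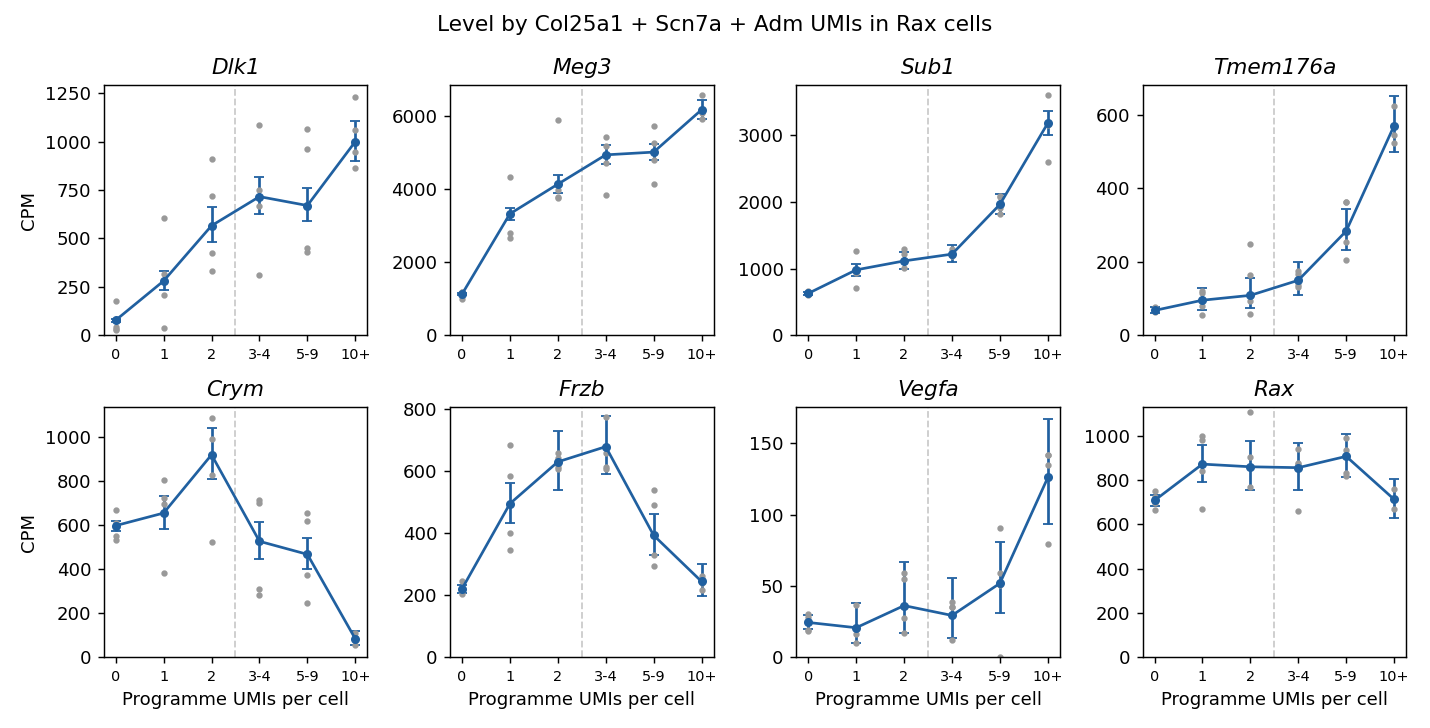
Level in CPM of 8 genes in Rax cells within the limits by programme UMIs per cell (0, 1, 2, 3 to 4, 5 to 9, 10 or more), with blue points and bars for all cells and their exact Poisson 95% interval, grey points for the 4 barcode numbers, and a dashed line at the threshold. Meg3 is raised from 1 programme UMI on, Sub1 and Tmem176a are highest at 10 or more, where Crym and Frzb stand at 84.2 and 245 CPM, and the Dlk1 point at 0 includes the cell with 183 UMIs.

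To see how the cells differed among themselves, they were split at the median of programme UMIs over all UMIs into 100 cells each. The median depth was 5210 UMIs in the cells with more of the programme and 5251 in the others, and depth was not otherwise matched. Of 3597 genes compared, 38 were higher (1.06%) and 26 lower (0.723%) by at least 1 log2 unit in the 100 cells with more of the programme, 30 and 24 of them in the same direction under all 4 barcode numbers. Genes of the programme are higher there by construction. Vegfa stood at 111 CPM against 32.6, Rgcc at 614 against 241, the transcription cofactor Lmo1 at 140 against 34.5, Kazald1, a binding protein of insulin-like growth factors, at 134 against 28.7, and Lrrtm3, a synaptic adhesion protein, at 92.5 against 3.83. Sub1 at 2898 against 1469 CPM fell just short of 1 log2 unit.

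Of the ciliated ependymocyte list, 6 of 12 genes had enough UMIs to be compared. Of these, 5 were among the 26 lower genes (Dynlrb2, Rsph1, Fam183b, Riiad1 and Rarres2), beside 0.723% of all 3597 genes compared. Dynlrb2 stood at 81.2 CPM against 268, Rsph1 at 64.2 against 203 and Fam183b at 100 against 295. Crym had 193 CPM against 502, Frzb 249 against 600 and the semaphorin and VEGF receptor Nrp2 39.6 against 130. With the 8 cells past the ciliated cell limit left out, Dynlrb2, Rsph1, Fam183b and Riiad1 were still past 1 log2 unit, at -1.54, -1.26, -1.41 and -1.25. Rarres2 was not, at 107 CPM against 207 (-0.89).

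Cells with Adm were compared with those without it. The 80 cells with Adm (median 5542 UMIs) and the 120 without (median 4871 UMIs) differed by at least 1 log2 unit in 32 of 3597 genes, 15 higher (0.417%) and 17 lower (0.473%), Adm included. Scn7a was at 855 CPM in the cells with Adm and 508 in those without, whereas Col25a1 was at 781 and 826 CPM. Among the 15 higher genes were 4 that are known to respond to interferon. Isg15, a ubiquitin-like modifier, stood at 129 CPM against 16.8, Ifit3 at 177 against 70.6, Bst2 at 142 against 60.5 and Ifi27l2a at 85.3 against 32.0. These genes were picked out after their values had been seen, as was a wider set of such genes that was then looked at. Of the others in that set, Ifi27 (908 CPM against 585), B2m (190 against 143) and Rtp4 (48.1 against 42) lay within 1 log2 unit. Others of the kind did not keep 1 direction, as Ifitm3 had 622, 831, 159 and 148 CPM in cells with Adm against 228, 248, 278 and 371, and Rtp4 had 44.5, 66.8, 33.4 and 44.4 CPM against 10.8, 20.7, 82.7 and 68.2. Isg15 was found in 24 of the 200 cells, and its levels in cells with Adm were 104, 289, 25 and 44.4 CPM in numbers 1 to 4, against 27.1, 20.7, 7.52 and 7.57, so that the highest levels were in numbers 1 and 2. The 2 groups of cells were not chosen independently of the programme level, since Adm is part of it.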

How the data were processed

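The authors made the table of UMI counts from 10x Genomics 3′ libraries with Cell Ranger 2.0 on GRCm38 (mm10), per the submitters' processing notes. The deposited values are these counts, not normalized, in 1 matrix of 5982 cells and 27998 genes with 29288898 UMIs. Barcode numbers 1 to 4 held 7806887, 6508038, 7243332 and 7730641 UMIs. Of the gene identifiers, 27722 had a symbol in GENCODE vM21. The 32 sample records are lanes and index parts of 4 libraries and were not taken as replicates.

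UMIs were summed per group of cells and divided by 1e+06 UMIs, and ratios are of log2(CPM + 10), which understates changes of low genes. Genes with at least 50 UMIs over both groups were compared, and 1 log2 unit was the threshold. No test between groups was run, since there was 1 sample, and Dixon's criterion was used only to flag single values by barcode number. Intervals are at 95%, exact Poisson for CPM and Clopper-Pearson for shares, and cover counting error only. Genes named are those of the gene lists and the 25 with the largest and the 25 with the smallest ratio to other Rax cells among genes with at least 200 UMIs and the same direction under all 4 barcode numbers, without genes of the rule. Genes of the comparisons within the 200 cells, and genomic neighbours, were chosen after their values were seen. Cells were clustered with scanpy 1.11.5 (2000 variable genes, 30 components, 15 neighbours, resolution 1), doublets were called with Scrublet and kept, and cells were thinned to 2000 UMIs for the comparison of depths, which left out 1 of the 200 cells and 20 other Rax cells. edgeR 4.0.16 gave the TMM factors of an alternative. The comparison of summed UMIs between groups was tested on simulated counts with planted changes and without variation between cells. The choice of cells and the other steps were not tested in this way. The cells, gene lists and comparisons were chosen with earlier results of these data known. Promoter sequences are from RefSeq (GRCm38.p6), where the symbols of all 3 genes were found. Bases after the RefSeq start were found in 1 annotated transcript each of Scn7a and Adm and in 0 of Col25a1. Some genes are not reported here.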

Additional observations from a re-analysis of the deposited data

Results flagged for a closer look

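Among 57 sets of 4 values by barcode number, 2 held a value far from the other 3 by Dixon's criterion, which chance alone gives in about 1 of 20 sets. The share of Col25a1/Scn7a/Adm cells among Rax cells was 10.4% in number 4, against 15.4%, 16.4% and 15.7% in numbers 1 to 3. The 95% intervals overlapped (7.42% to 14.2% in number 4 and 12% to 19.3% in number 1), and the condition of these libraries is not known. The microglial gene C1qa stood at 39.3 CPM in the Col25a1/Scn7a/Adm cells of number 2, against 31.3, 31.6 and 30.1 CPM.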

How the results depend on the processing

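All values rest on 1 sample, so that no alternative gives a test, and sparse counts limit statements on single cells. The share of Col25a1/Scn7a/Adm cells among all cells was 4.25% with a threshold of 2 programme UMIs, 2.31% with 5 and 5.22% in cells with 3000 to 12000 UMIs, and between 3.16% and 3.65% when 1 barcode number was left out.

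Against other Rax cells, the number of genes at least 1 log2 unit higher was 254 with a pseudocount of 1 CPM, 45 with 50 CPM and 63 among genes with at least 200 UMIs, and the number lower was 803, 77 and 207. With at least 2 Rax UMIs 228 genes were lower. With at least 4 Rax UMIs, a choice made after seeing the data, 87 were higher and 145 lower. Without 1 barcode number these counts were 133 to 138 higher and 354 to 381 lower. Against all other cells, 797 genes were higher and 3198 lower with a pseudocount of 1 CPM, and 119 and 338 with 50 CPM, with 313 to 340 and 1231 to 1260 when 1 barcode number was left out. Within the 200 cells, thinning to 2000 UMIs left 17 genes higher and 12 lower. Thinning leaves fewer UMIs to reach the minimum, and the part of this in the smaller counts was not tested. Among the named genes, Cga (0.07) turned direction when cells with transcripts of other types were left out, and Chgb (0.13) with at least 4 Rax UMIs. The log2 ratio of the left-out gene was 3.21 to 3.41 for Col25a1, 4.85 to 5.20 for Scn7a and 3.21 to 3.57 for Adm without 1 barcode number. TMM factors and leaving out doublets moved 0 of the 25 higher and 0 of the 25 lower named genes. A pseudocount of 50 CPM moved 23 of the higher and 23 of the lower genes, with Tbx3 (0.95) and 1700003F12Rik (0.86) then under 1. At least 2 Rax UMIs moved 8 and 15, at least 4 Rax UMIs 15 and 16, and leaving out cells with transcripts of other types 4 and 13. Without the limits on Agt, Dcn and neuron genes, 8 of the 25 higher and 8 of the 25 lower named genes moved and 0 turned direction. The ratio changed by over 1.5 times for Dlk1 at 2.26, Chga at -3.37, Chgb at -2.07, Pcsk2 at -2.35, Fabp5 at -2.15, Necab2 at -2.07, Scg2 at -1.15, Resp18 at -1.65 and Stmn1 at -1.24 log2 units. No paired analysis was possible because the results come from no test on 1 sample, and both groups of cells are given side by side for each barcode number.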
